A study of Mus musculus with 6 samples.

Results

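The genes described here encode 3 groups of proteins that limit damage by oxidants and metals: superoxide dismutases, the peroxide-removing enzymes catalase, glutathione peroxidases and peroxiredoxins, and the metallothioneins. They were chosen by name, as array features whose gene symbol was Sod1, Sod2, Sod3, Cat, Gpx1, Gpx4, Prdx1, Prdx5, Mt1 or Mt2. Of these 10 genes, 8 had 1 feature each and 7 were measured, among 10698 genes with a feature and 10088 that could be tested. The Prdx1 feature was listed at exactly 0 on all 6 arrays, which was treated as not measured. For Prdx5 and Mt1 no feature carried the symbol, so both were not analysed here. All 7 measured genes had values on all 6 arrays, and no zero entered their means.

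Total RNA came from RAW 264.7 cells, a macrophage line grown from a virus-induced mouse tumour, and represents 1 line. In the treated group the cells had been kept for 8 h with lipopolysaccharide (LPS) at 100 ng/ml together with LPS-binding protein at 100 pM, and in the control group for 8 h without them. LPS is a cell wall component of Gram-negative bacteria, and LPS-binding protein delivers it to CD14 and Toll-like receptor 4. Treated and control RNA were mixed on 6 two-colour arrays in 3 numbered sets, each with 1 array that carried the treated RNA in Cy5 and 1 that carried it in Cy3, called the Cy5 and the Cy3 arrays below. LPS and its binding protein were given together, so their effects cannot be told apart. Some labels write the line as 264.4. Whether the sets came from separate cultures is not in the labels, so p-values below reflect the spread between sets, which may be technical.

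Macrophages that meet bacterial products make superoxide with the phagocyte oxidase. Superoxide dismutases turn superoxide into hydrogen peroxide, and catalase, glutathione peroxidases and peroxiredoxins then reduce the peroxide. Metallothioneins are small cysteine-rich proteins that bind zinc and copper and can scavenge oxidants. In macrophages Sod2, the manganese enzyme of mitochondria, and the metallothionein genes are known as genes that inflammatory signals can induce.

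Each value is a log2 ratio of treated over untreated RNA, as deposited and then turned on the Cy3 arrays. The numerator of the ratio is not named in the table. The labels give Cy3 as control and Cy5 as test, so Cy5 over Cy3 is the likely direction, and every sign below would turn if it were the reverse. Turned ratios correlated across genes with Pearson's r of 0.718 to 0.904 between arrays of one dye orientation and of 0.603 to 0.829 between opposite orientations, and genes are not independent replicates there. Ratios hold no expression levels. Whether the macrophage's defining markers were present therefore could not be checked. As ratios, 3 of 5 macrophage markers rose and 1 fell, while of 3 T cell, 2 B cell and 3 fibroblast markers 0 passed the test. Over all genes tested, 17.3% rose and 16.8% fell. With so few markers the counts are a description and do not say which cells were present. In RNA pooled from a whole culture, a change in the share of cells that make a transcript and a change in RNA per cell cannot be told apart.

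The comparison asked how transcripts differed after 8 h of treatment. Mt2 and Sod2 were higher in treated cells, at 2.32-fold and 1.83-fold, while Gpx1, Gpx4 and Cat were lower by 23.6%, 21.0% and 14.3%. Sod1 and Sod3 did not pass the test. In all, 5 of the 7 measured genes passed limma's test of the 3 set means at an adjusted p of 0.05, with adjustment over all 10088 genes, against a background of 34.2% of all genes. Of the 7 genes, 2 rose, against 17.3% of all genes, and 3 fell, against 16.8%. With 7 genes these shares are a description. Without set 3, 4 of the 7 and 2009 of 9556 genes were called. The median log2 ratio of the 7 was -0.065, beside -0.0076 over all genes tested.

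**Figure D1:**
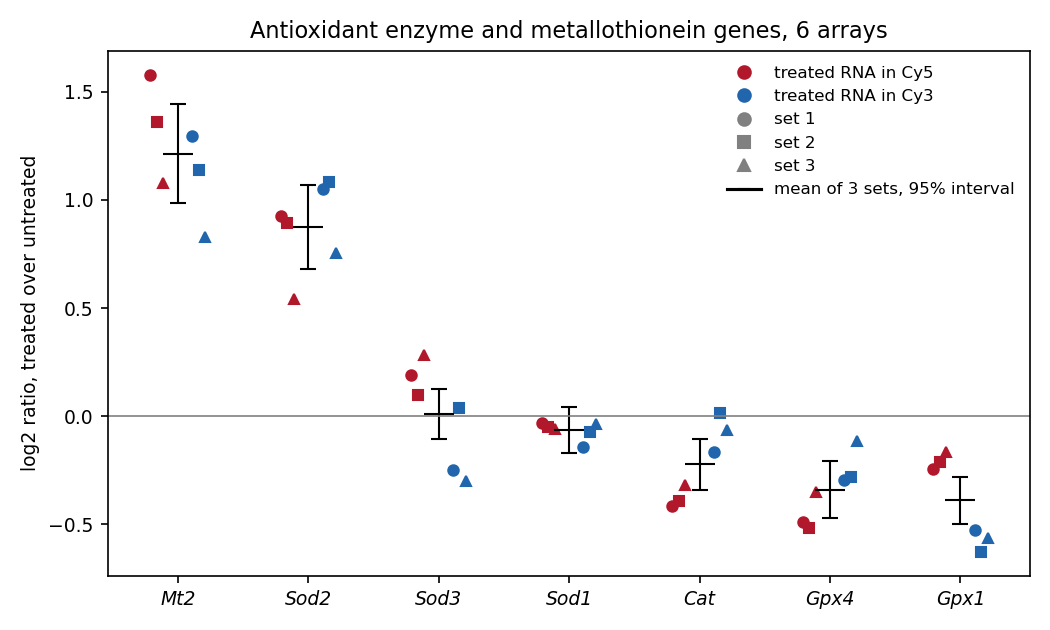
Log2 ratio of treated over untreated RNA (vertical axis) for the 7 measured genes (horizontal axis), with 1 point per array coloured by dye orientation and shaped by set number, and black bars for the mean of 3 sets with limma's 95% interval. All points of Mt2 and Sod2 lie above 0 and all points of Gpx1 and Gpx4 below it, while 4 points of Sod3 lie above 0 and 2, both from Cy3 arrays, below it.

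Sod2 encodes the manganese superoxide dismutase of the mitochondrial matrix. Its log2 ratio was 0.93, 0.89 and 0.54 in sets 1, 2 and 3 on the Cy5 arrays and 1.05, 1.08 and 0.75 on the Cy3 arrays. All 6 values were above 0, and both values of set 3 were the lowest of their orientation. The mean was 0.87 ± 0.20 (SD, n = 3 sets), or 1.83-fold with a 95% interval of 1.60-fold to 2.10-fold (limma's adjusted p = 0.000526). Across all genes tested, 3.33% had a higher mean ratio than Sod2.

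Sod1 encodes the copper-zinc enzyme of the cytosol. The Cy5 arrays gave it log2 ratios of -0.031, -0.051 and -0.058 in sets 1, 2 and 3, and the Cy3 arrays gave -0.14, -0.072 and -0.034. The 6 values were all slightly below 0 and close together. Their mean of -0.065 ± 0.021 (SD, n = 3 sets) did not pass limma's test (adjusted p = 0.307), and the 95% interval ran from -0.17 to 0.042. A change of Sod1 as large as that of Sod2 lay outside this interval.

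Sod3 encodes the secreted, extracellular copper-zinc enzyme. In sets 1, 2 and 3 its log2 ratios were 0.19, 0.099 and 0.28 on the Cy5 arrays and -0.25, 0.036 and -0.30 on the Cy3 arrays. All 3 values were above 0 in the first orientation and 2 of 3 below 0 in the second. The 2 dye orientations did not overlap. The mean over sets was 0.010 ± 0.051 (SD, n = 3 sets), with a 95% interval of -0.10 to 0.12 (limma's adjusted p = 0.896), and the difference between orientations was 0.36 (limma's adjusted p = 0.195).

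The 250 bases before the annotated start of Sod2 and Sod1 are given because these genes, the mitochondrial and the cytosolic enzyme, had different ratios. They come from RefSeq (GRCm38.p6), which held such a stretch for 9 of the 10 genes. Capitals mark the GC box letters GGGCGG, which the factor Sp1 is known to bind, on either strand. Sod2 lies at chr17:13007589-13007838 and Sod1 at chr16:90220512-90220761, both on the plus strand.
Sod2: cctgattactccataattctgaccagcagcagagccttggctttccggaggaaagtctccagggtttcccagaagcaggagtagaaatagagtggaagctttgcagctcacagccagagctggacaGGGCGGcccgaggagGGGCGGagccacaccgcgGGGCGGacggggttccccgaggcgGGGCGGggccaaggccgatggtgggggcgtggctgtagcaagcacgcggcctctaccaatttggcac
Sod1: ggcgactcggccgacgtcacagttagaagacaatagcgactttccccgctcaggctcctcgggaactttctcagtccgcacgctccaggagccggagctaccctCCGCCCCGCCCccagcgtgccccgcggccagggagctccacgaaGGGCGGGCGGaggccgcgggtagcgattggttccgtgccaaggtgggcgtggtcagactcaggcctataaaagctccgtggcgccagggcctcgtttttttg
Each stretch held 4 matches. Those of Sod2 began 124, 109, 91 and 67 bases before the start. Those of Sod1 formed 2 overlapping pairs, beginning at 146 and 141 and at 102 and 98 bases. Of 32851 such stretches in the table, 32.7% held the letters at least once and 4.09% at least 4 times. Whether these letters bear on the ratio of either gene was not tested. Searched on both strands, the letters TTCNNNGAA, a form of the site that STAT factors bind, began 185 bases before the start of Sod2, were not found for Sod1 and occurred in 7.02% of stretches. A match is a description of letters, and no match says only that they are not in this window.

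Cat encodes catalase, the peroxisomal enzyme that splits hydrogen peroxide. In sets 1, 2 and 3 its log2 ratios were -0.41, -0.39 and -0.32 on the Cy5 arrays and -0.17, 0.013 and -0.064 on the Cy3 arrays. The Cy3 arrays were nearer to 0 in each set. Of the 6 values 5 were below 0, and no value of one orientation reached those of the other. The mean was -0.22 ± 0.058 (SD, n = 3 sets), or 14.3% lower (limma's adjusted p = 0.0143). That call was lost without set 3 and on the Cy3 arrays alone. Without set 3 the log2 ratio was -0.24, about as large (limma's adjusted p = 0.0793), in a fit where fewer genes passed in all. The ratio of Cat was -0.37 on the Cy5 arrays alone (adjusted p = 0.00861) and -0.073 on the Cy3 arrays alone (adjusted p = 0.463).

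Gpx1 encodes the most widespread glutathione peroxidase, a selenoprotein of cytosol and mitochondria. In sets 1, 2 and 3 its log2 ratios were -0.24, -0.21 and -0.16 on the Cy5 arrays and -0.53, -0.63 and -0.56 on the Cy3 arrays. All 6 values were below 0, and the groups of both orientations did not overlap. The mean was -0.39 ± 0.028 (SD, n = 3 sets), or 1.31-fold lower with a 95% interval of 1.21-fold to 1.41-fold (limma's adjusted p = 0.00128). Each orientation alone passed limma's test, at -0.21 on the Cy5 arrays (adjusted p = 0.0399) and -0.57 on the Cy3 arrays (adjusted p = 0.0072). Among all genes tested, 6.32% had a lower mean than Gpx1.

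Gpx4 encodes the glutathione peroxidase that reduces lipid hydroperoxides in membranes and protects against ferroptosis. In sets 1, 2 and 3 its log2 ratios were -0.49, -0.51 and -0.35 on the Cy5 arrays and -0.30, -0.28 and -0.11 on the Cy3 arrays. All 6 values were below 0 and set 3 was nearest to 0 in both orientations. The mean was -0.34 ± 0.094 (SD, n = 3 sets), or 1.27-fold lower with a 95% interval of 1.16-fold to 1.39-fold (limma's adjusted p = 0.00452). On the Cy3 arrays alone its log2 ratio was -0.23 (adjusted p = 0.0785).

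Mt2 encodes metallothionein 2 and showed the largest ratio of the 7 genes. In sets 1, 2 and 3 its log2 ratios were 1.58, 1.36 and 1.08 on the Cy5 arrays and 1.29, 1.14 and 0.83 on the Cy3 arrays. All 6 values were above 0, and set 3 had the lowest value in both orientations. The mean was 1.21 ± 0.24 (SD, n = 3 sets), or 2.32-fold with a 95% interval of 1.98-fold to 2.72-fold (limma's adjusted p = 0.000283). Across all genes tested, 2.23% had a higher mean ratio. Mt1 is the genomic neighbour of Mt2 and encodes a closely similar protein. The sequence of the Mt2 feature was not used here, so transcripts of both genes cannot be told apart on it.

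Mt2 is the gene of the group with the best-known metal control. The metal-responsive factor MTF-1 binds metal response elements before metallothionein genes. The 250 bases before the Mt2 start, at chr8:94172368-94172617 on the plus strand (RefSeq, GRCm38.p6), are given with the letters TGCACNC or TGCGCNC, the core of that element, in capitals on either strand.
Mt2: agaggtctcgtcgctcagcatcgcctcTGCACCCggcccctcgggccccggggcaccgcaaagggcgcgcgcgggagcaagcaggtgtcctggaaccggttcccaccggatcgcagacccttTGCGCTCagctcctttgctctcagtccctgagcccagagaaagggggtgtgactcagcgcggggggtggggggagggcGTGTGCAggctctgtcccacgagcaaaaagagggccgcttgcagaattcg
There were 3 matches, which began 223, 128 and 50 bases before the start and did not overlap. At least 1 match was found in 21.4% of all 32851 stretches, and 3 or more in 1.26%. The same stretch held 1 match to TGACNNNGC, the core of the antioxidant response element bound by NRF2, 79 bases before the start, as did 10.2% of stretches. The stretch held 0 matches to GGGCGG and to TTCNNNGAA. The stretch listed for Mt1 was chr8:94178839-94179088, with 1 match to a metal response core, 23 bases before the start that it precedes. The annotated Mt1 gene begins at 94178883, inside this stretch, so most of it, with the match, lies within the gene. The bases before that earlier start were not searched in full, so Mt1 and Mt2 cannot be compared here. The stretches before Sod1, Sod2, Cat, Gpx1, Gpx4, Prdx1 and Prdx5 held 0. Binding of any factor was not measured.

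Set 3 had the lowest ratio of Mt2 and Sod2, with set means of 0.95 for Mt2 against 1.44 and 1.25 in sets 1 and 2, and of 0.65 for Sod2 against 0.99 in each of the others. Without set 3 the log2 ratio was 1.34 for Mt2 and 0.99 for Sod2. The 1684 genes called higher and measured in all sets had medians of 0.378, 0.389 and 0.394 in sets 1, 2 and 3.

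From highest to lowest, the order of the mean log2 ratios was Mt2, Sod2, Sod3, Sod1, Cat, Gpx4 and Gpx1. Mt2 lay above Sod2 on 6 of 6 arrays, by 0.34 ± 0.099 (SD, n = 3 sets), although the ranges of their set means overlapped. Sod2 lay above Sod3 by 0.87 ± 0.19 with no overlap on any array. Sod1 lay above Cat in 3 of 3 sets, by 0.16 ± 0.040, but on 5 of 6 arrays. Sod3 lay above Sod1 in 3 of 3 sets, by 0.075 ± 0.048, and on 4 of 6 arrays. Cat lay above Gpx4 on 6 of 6 arrays, by 0.12 ± 0.085, although the ranges of their set means overlapped. Gpx4 and Gpx1 differed by 0.049 ± 0.073, which is within the spread between sets, and Gpx4 lay above on 3 of 6 arrays. The differences of the 6 neighbouring pairs are given as a description, with no test.

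**Figure D2:**
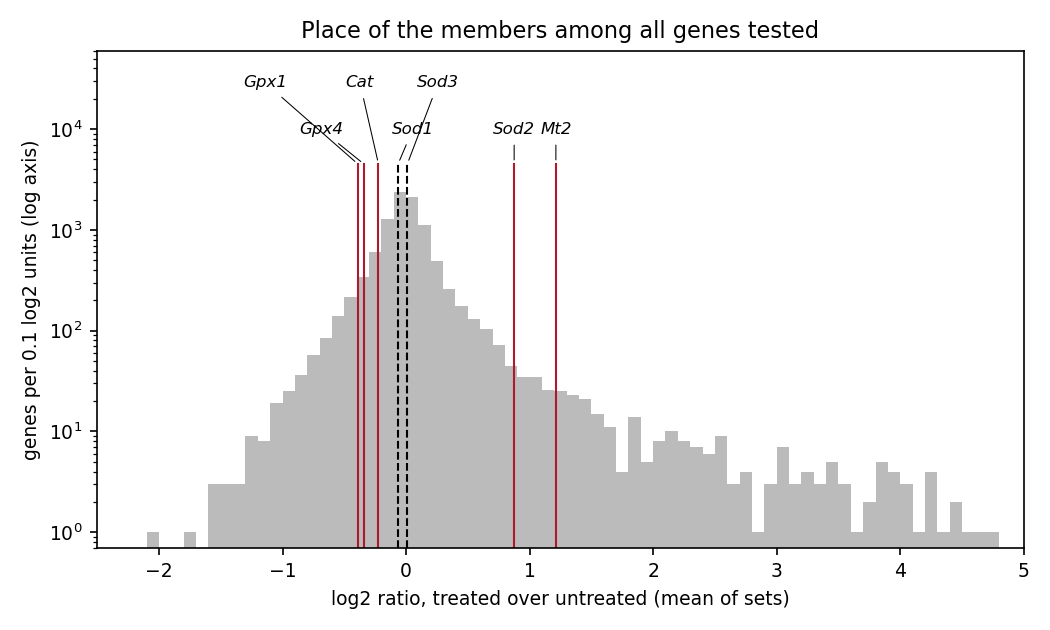
Number of genes (vertical log axis) per 0.1 units of mean log2 ratio (horizontal axis) for all 10088 genes tested, with vertical lines for the 7 genes, red where the adjusted p was under 0.05 and dashed black otherwise. Mt2 and Sod2 lie in the upper tail, where 2.23% and 3.33% of genes are higher, and the 3 lowered enzymes lie on the lower shoulder of the main peak.

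The sizes of the falls are set against the dye differences because these were of a like order. The mean on the Cy5 arrays minus that on the Cy3 arrays was 0.36 for Gpx1, -0.30 for Cat, -0.22 for Gpx4, 0.25 for Mt2, -0.17 for Sod2 and 0.036 for Sod1. Over all genes the median size of this difference was 0.17. In limma's test of the 3 set differences 0 of 10088 genes passed after adjustment, which is 0% of all genes, while 2653 had an unadjusted p under 0.05. Of the 7 genes, 0 passed and 5 had an unadjusted p under 0.05, and their adjusted p ran from 0.125 to 0.72. With a dye term fitted over the 6 arrays as separate replicates, 376 of 10131 genes passed, Gpx1 among them (limma's adjusted p = 0.0448). Each set mean averages 1 array of each orientation, so a dye difference of equal size on both cancels in it.

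**Figure D3:**
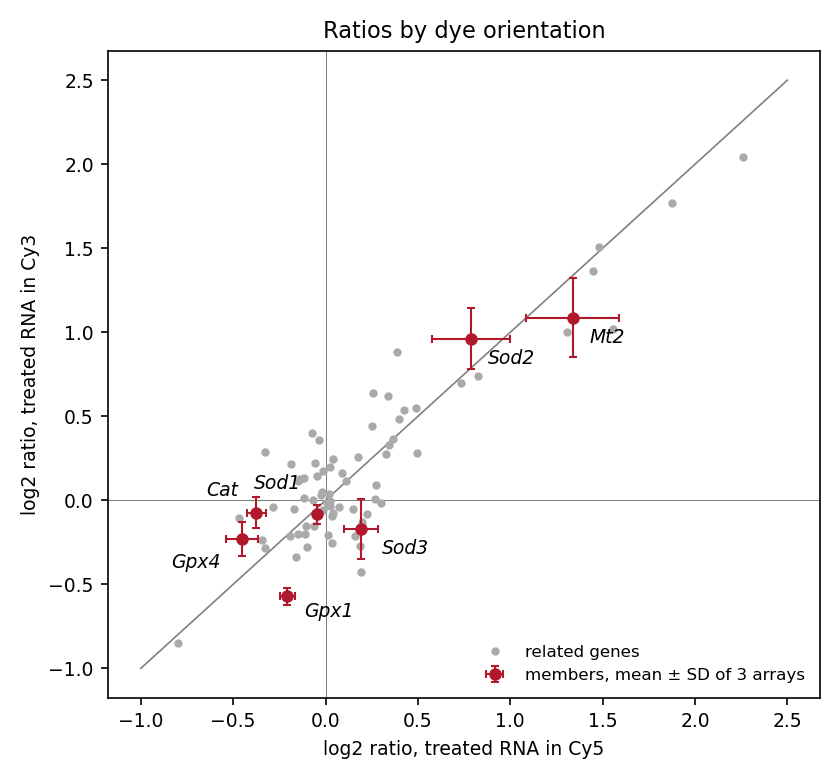
Mean log2 ratio over the 3 Cy3 arrays (vertical axis) against that over the 3 Cy5 arrays (horizontal axis), red for the 7 genes with SD bars over 3 arrays and grey for 70 related genes, with the line of equality. Mt2 and Sod2 lie high in both orientations, Gpx1 lies below the line and Cat and Gpx4 lie above it.

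In sign, 5 of the 7 genes had the same direction on all 6 arrays, against 35.2% of the genes measured on 6 arrays. They were Mt2 and Sod2 above 0, and Gpx1, Gpx4 and Sod1 below 0. The 6 values of Sod1 had one sign at a size near 0 and did not pass the test, while Cat passed with 1 array on the other side of 0.

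No other measured peroxidase gene was called. Of 8, 0 passed limma's test, beside 34.2% of all genes, and 3 had an unadjusted p under 0.05. The log2 ratio was 0.22 for Gpx3, the secreted glutathione peroxidase, -0.25 for Gpx2, the form of gut epithelium, and 0.16 for Prdx2, a cytosolic peroxiredoxin. Prdx3, the mitochondrial peroxiredoxin, stood at -0.018 and Prdx4, that of the endoplasmic reticulum, at 0.015. Their median was -0.0012. Calls did appear under some alternatives. Prdx2 passed in the fit over 6 arrays with a dye term (limma's adjusted p = 0.0219), and Gpx3 after quantile normalization (adjusted p = 0.0426). The mean of Prdx2 was -0.072 on the Cy5 arrays and 0.40 on the Cy3 arrays, and it passed on the Cy3 arrays alone (limma's adjusted p = 0.0187). Without set 1, Gpx3 stood at 0.27 (adjusted p = 0.0414) and Gpx2 at -0.37 (adjusted p = 0.0102).

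Of 15 measured genes that supply reducing power to peroxidases, 5 rose and 1 fell, at a median of 0.017. The share called was 40.0%, near the 34.2% of all genes. Glrx, which encodes glutaredoxin, rose by 2.15 ± 0.10 (SD, n = 3 sets), or 4.44-fold (limma's adjusted p = 5.17e-06). Slc7a11, the cystine importer that feeds glutathione synthesis, rose by 1.29 ± 0.11 on the feature measured in all sets, while its second feature gave 0.022. On the Cy5 arrays alone, where both features were averaged, it stood at 0.27 and did not pass (adjusted p = 0.0961). Gclc, which encodes the catalytic subunit of the first enzyme of glutathione synthesis, fell by 0.82 ± 0.075 on the log2 scale. Gclm, which encodes the modifier subunit of that enzyme, stood at 0.047 and did not pass. Gss, which encodes the next enzyme of glutathione synthesis, rose by 0.18 ± 0.013 (limma's adjusted p = 0.0221), but did not pass without set 3, at 0.17 (adjusted p = 0.162), or on the Cy3 arrays alone, at 0.090 (adjusted p = 0.317).

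Sources of superoxide were represented by 9 measured genes, of which 2 rose and 0 fell, at a median of 0.0086. The share called was 22.2%, below the 34.2% of all genes. Cybb, which encodes the core of the phagocyte oxidase, rose by 1.41 ± 0.14 (SD, n = 3 sets), and Rac2, a GTPase that activates it, by 0.37 ± 0.10. The median of the list was near that of all genes.

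In the list of zinc and copper handling, which covers the ions that metallothioneins and Sod1 bind, 7 of 22 measured genes rose and 3 fell, at a median of 0.11. The share called was 45.5%, beside 34.2% of all genes. Slc31a2, a low-affinity copper transporter, rose by 1.82 ± 0.047 (SD, n = 3 sets), or 3.53-fold (limma's adjusted p = 4.98e-06). Slc30a7, a zinc transporter of the Golgi, rose by 0.72 ± 0.10. Slc30a1, the zinc exporter of the plasma membrane, rose by 0.63 ± 0.032 over 2 features with means of 0.40 and 0.86. Mtf1, which encodes the metal-responsive factor, rose by 0.44 ± 0.028, and the copper pump gene Atp7a by 0.48 ± 0.0039. Slc39a3 and Slc39a11, both zinc importers, fell by 0.20 ± 0.045 and 0.19 ± 0.029. Without set 3 they stood at -0.22 and -0.17, about as large, and did not pass (limma's adjusted p of 0.0899 and 0.162), in a fit where fewer genes passed in all. On the Cy5 arrays alone Slc39a11 stood at -0.10 (adjusted p = 0.189). On the Cy3 arrays alone Slc39a3 stood at -0.21 (limma's adjusted p = 0.064). In the reported fit, members of both transporter families went either way. Slc39a7, a zinc transporter of the endoplasmic reticulum, rose by 0.35 ± 0.094 (limma's adjusted p = 0.00427). Slc30a5, a zinc transporter of the secretory pathway, fell by 0.16 ± 0.069 (limma's adjusted p = 0.0485). It stood at -0.15 without set 3 (adjusted p = 0.249) and at -0.042 on the Cy3 arrays alone (adjusted p = 0.626). Its call was also lost without set 2 (limma's adjusted p = 0.118) and with zeros kept (0.0565). The same held with sets of 1 measured array kept (0.0617) and after scaling to one median absolute deviation (0.0519). Ccs, the chaperone that loads copper into the Sod1 protein, stood at -0.13 and did not pass. The other metallothionein genes Mt3 and Mt4, known from brain and stratified epithelium, stood at 0.14 and -0.11 and did not pass either.

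Of 2 measured genes of selenoprotein synthesis, which Gpx1 and Gpx4 need for their active site, 1 fell, beside 16.8% of all genes. Eefsec, the elongation factor that brings selenocysteine to the ribosome, fell by 0.31 ± 0.018 on the log2 scale, and Sephs2, which makes the selenium donor, stood at -0.17. Among 14 measured regulators known for these genes, 6 rose and 2 fell, at a median of 0.076. The share called was 57.1%, beside 34.2% of all genes, in a short list chosen with earlier results of these data known. On the Cy3 arrays alone, where fewer genes passed in all, 4 of the 14 rose and 0 fell. Mafk, a small Maf partner of NRF2, rose by 1.49 ± 0.078 and Stat3 by 1.15 ± 0.071 (SD, n = 3 sets). Keap1, which holds NRF2 in check, rose by 0.45 ± 0.11 but stood at 0.26 on the Cy5 arrays alone (adjusted p = 0.053), whereas Nfe2l2, the gene of NRF2 itself, stood at -0.11 and did not pass. The deacetylase genes Sirt3 and Sirt1 both fell by 0.29 on the log2 scale, though Sirt1 did not pass without set 3 (limma's adjusted p = 0.0995) and neither passed on the Cy3 arrays alone (0.0683 for Sirt3 and 0.396 for Sirt1). Over all related lists 27 of 70 genes were called, 38.6% beside the 34.2% of all genes, so their share was near the background.

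**Figure D4:**
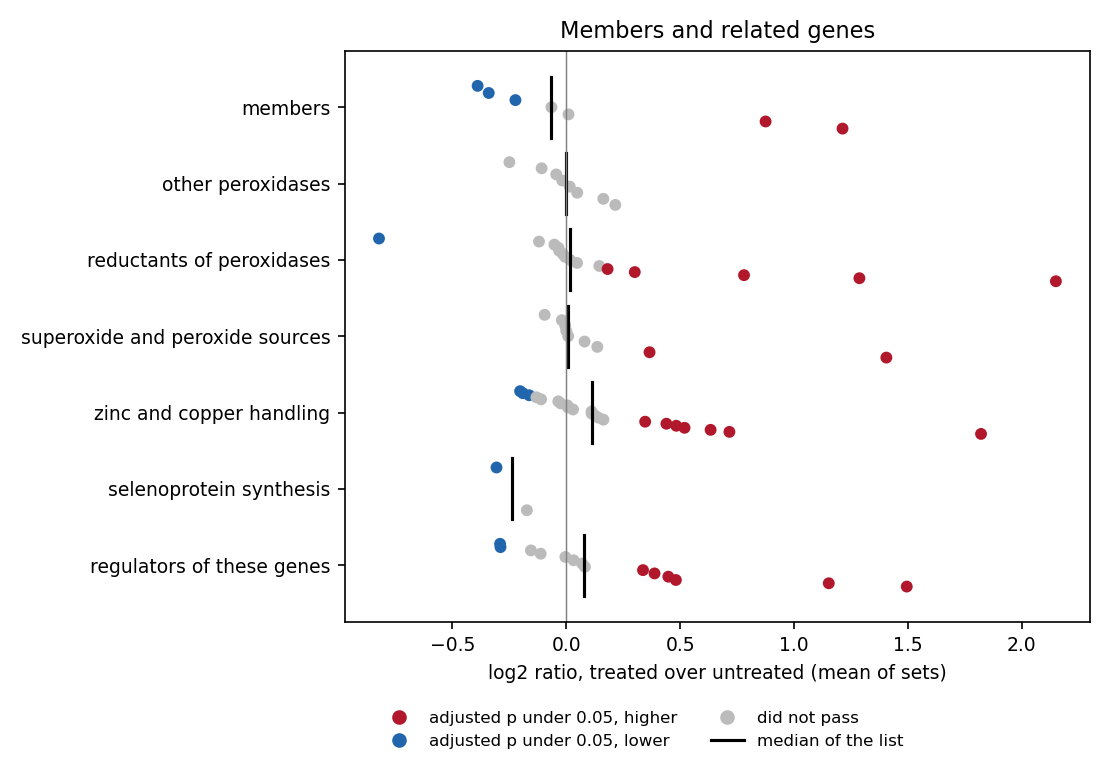
Mean log2 ratio of treated over untreated RNA (horizontal axis) for the 7 genes and the 70 related genes by list (vertical axis), red for higher and blue for lower at an adjusted p under 0.05, grey otherwise, with black lines for list medians. The medians lie between -0.24 and 0.11, and single genes such as Glrx at 2.15 and Slc31a2 at 1.82 stand far to the right.

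By the smallest root mean square difference over the 6 arrays among 8900 genes, the genes most like Sod2 were Ddx24, Trip12 and Clic4, with differences of 0.090, 0.10 and 0.13 log2 units. Those most like Mt2 were Adgre1, Msr1 and Spink5, with differences of 0.14, 0.15 and 0.17. Adgre1 encodes an adhesion receptor used as a macrophage marker and Msr1 a scavenger receptor. These genes were chosen for likeness, which takes in size and dye difference alike.

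**Figure D5:**
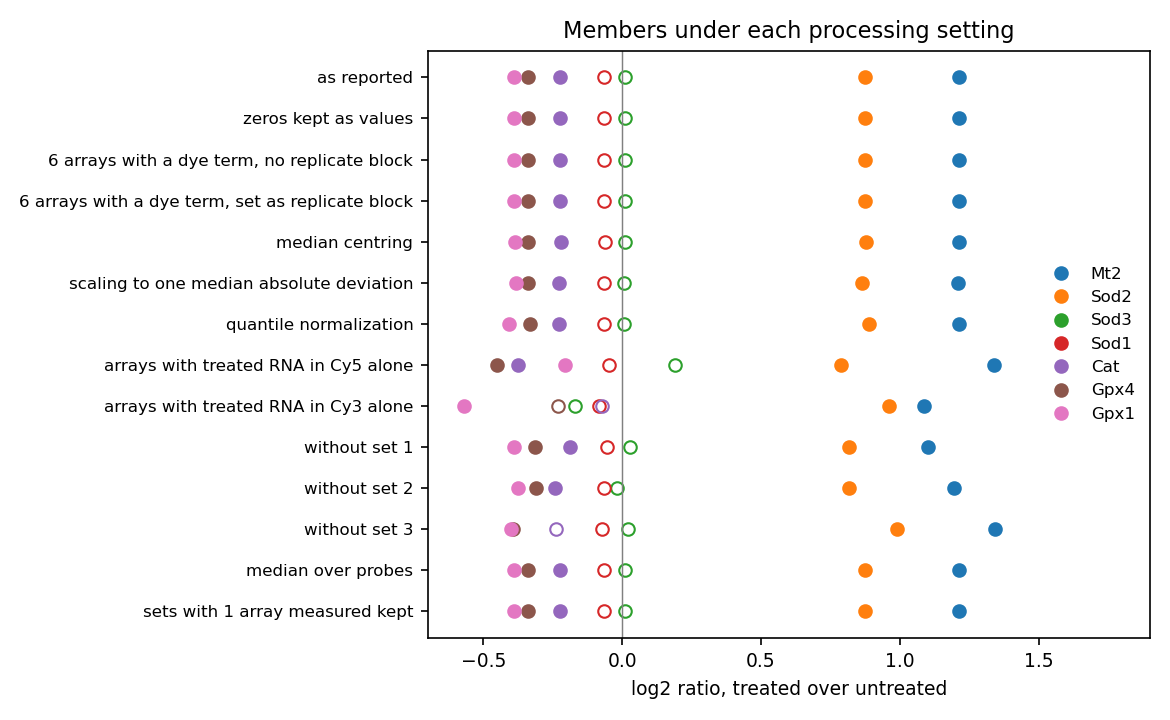
Log2 ratio (horizontal axis) of the 7 genes under the reported processing and 13 alternatives (vertical axis), filled where the adjusted p was under 0.05 and open otherwise. Mt2 stays between 1.09 and 1.34 and Sod2 between 0.79 and 0.99, while Cat runs from -0.37 to -0.073 and Sod3 from -0.17 to 0.19.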

How the data were processed

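Per the labels' dyes and the values, the authors deposited 1 log2 ratio for each of 16281 features on each array. Base 2 was inferred from the largest ratio, exactly log2 of 100. How slides were scanned, corrected for background and normalized for dye is not given in the sources used here. Channel intensities were not used, so the number of arrays is the stated limit on precision. The platform annotation gave 1 symbol for 13738 features. Exact zeros (1328 to 2262 per array) counted as not measured.

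Signs were turned on the Cy3 arrays. Both arrays of a set were averaged where both were measured, and features measured in all 3 sets (otherwise in 2) were averaged per gene. Limma 3.58.1 (lmFit, eBayes; R 4.3.3) tested the set means against 0, with Benjamini-Hochberg adjustment over all genes. The procedure was checked on simulated set means with known changes, drawn as independent normal values with the fitted variances. That check does not cover dye effects or sets that are not independent. Members and lists were chosen with earlier results of these data known. Named were all members, the 2 largest called rises and falls per list, the 3 genes most like Sod2 and Mt2, and further list genes chosen after their values were seen (Slc30a1, Slc30a5, Slc39a7, Mtf1, Atp7a, Gss, Keap1 and those that did not pass).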

Additional observations from a re-analysis of the deposited data

How the results depend on the processing

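Of 91 values of the 7 genes under 13 alternatives, 86 kept their direction and their side of the threshold. Their log2 ratios were exactly those reported with zeros kept, with the median over features and with incompletely measured sets kept. The fits with a dye term left them the same too. In those settings only the p-values of the 7 genes could change, so their direction was tested only by the other alternatives. All lost calls and changed signs fell under these other alternatives. Mt2, Sod2 and Gpx1 passed under all 13 and Sod1 under 0. Cat lost its call on the Cy3 arrays alone and without set 3, and Gpx4 on the Cy3 arrays alone, which left 3 of the 7 called there. Fewer genes passed in all on the Cy3 arrays alone, 2418 of 10258 against 3449 of 10088 as reported. Sod3, which never passed, changed sign to -0.17 on the Cy3 arrays alone and ranged from -0.019 (without set 2) to 0.029 with each set left out. Leaving out each set in turn gave 4 to 5 called members, 2009 to 3395 called genes (against 3449), 21 to 30 related genes and 2956 to 4822 called features (against 4690), the lowest genes and features without set 3. The causes were not tested.

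The dye difference had 376 calls with a dye term over 6 arrays as separate replicates, against 0, a setting added after the data were seen. Same-numbered arrays of opposite orientation deviated together as deposited, with r of 0.256, 0.212 and 0.0999 over features. Turned to treated over untreated, these r have the opposite sign. As deposited, 5 of 6 arrays correlated best with their own number. That was seen in the data and is not given by the design, and whether same-numbered arrays share RNA was not tested. With the set number as a replicate block, 3643 genes were called against 3790 without it, and 5 of the 7 members in both. The correlation fitted within blocks, on turned ratios, was 0.117.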
